A study of Homo sapiens with 4 samples.

Results

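The insulin-like growth factor binding proteins (IGFBPs) are the 7 genes IGFBP1 to IGFBP7, and each was found by its symbol as 1 row in every table, 7 of 27940 gene symbols in all. They were followed in 4 RNA-seq libraries of U87, an established human glioma cell line. In the shPTPRN3 group (2 libraries) lentivirus delivered 1 short hairpin RNA that targets PTPRN, which encodes a dense-core vesicle membrane protein of the receptor-type tyrosine phosphatase family. In the shNC group (2 libraries) the cells received lentivirus of the empty FUGW-H1 vector, which the series' design text names H1-RFP (WT) instead. All cells grew in DMEM with fetal bovine serum, a source of IGFs and IGFBPs from outside the cells. A single hairpin was used, and the design text calls the replicates biological without saying whether they were separate cultures, so p-values measure only the spread between these libraries.

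IGFBPs are secreted proteins that hold IGF1 and IGF2 outside the cell and so set how much ligand reaches the receptor IGF1R. Proteases cut them and release the ligand, and several members also act on cells without IGF. IGFBP7 binds IGFs only weakly, and IGFBP6 prefers IGF2. In glioma tissue the family is best known for IGFBP2, which is often high in glioblastoma.

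The hairpin target named in the labels is shown because it is the agent that separates the groups.
hairpin target: ggaagtctgtattcaggatgg
In GENCODE 29 transcripts this 21-base sequence occurred in full in PTPRN, on chromosome 2, and in no other gene, with both strands searched. The longest stretch of it found in any IGFBP transcript, in the same orientation, was 8 bases, in IGFBP2, IGFBP3 and IGFBP5, and the shortest of these maxima was 6 bases, in IGFBP1, IGFBP4 and IGFBP7. PTPRN itself had 4.96 and 3.62 scaled FPKM in shPTPRN3 and 27.6 and 19.8 scaled FPKM in shNC (limma, log2 fold change -2.22, SE 0.34, adjusted p = 0.0592 over all genes). Its groups did not overlap, but the adjusted p missed the threshold of 0.05. FPKM are fragment numbers normalised to transcript length and to sequencing depth, and scaled FPKM are FPKM divided by a factor per library.

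The genes lie on 5 chromosomes (hg38), with 2 neighbouring pairs. IGFBP2 (chromosome 2, 216632828 to 216664435, plus strand) and IGFBP5 (216672105 to 216695549, minus strand) end 7669 bases apart. IGFBP1 (chromosome 7, 45888488 to 45893659, plus strand) and IGFBP3 (45912245 to 45921272, minus strand) end 18585 bases apart. IGFBP4 lies on chromosome 17 (40443450 to 40457725, plus strand), IGFBP6 on chromosome 12 (53097667 to 53102340, plus strand) and IGFBP7 on chromosome 4 (57030773 to 57110385, minus strand). IGFBP7 alone shares bases with other rows of the tables: POLR2B overlaps its 3' end and IGFBP7-AS1 its 5' end. IGFBP7-AS1 was listed at 0 in all 4 libraries.

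The 60 bases before the annotated start were read from RefSeq promoters (GRCh38.p14) for the 5 members the table holds, and those of the 3 among them with a mean of at least 1 scaled FPKM are shown, because the results turn on these members. Capitals mark letters that fit the TATA-type motif TATANA on either strand.
IGFBP3, chr7:45921273-45921332, minus strand: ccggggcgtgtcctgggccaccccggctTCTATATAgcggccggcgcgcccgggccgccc
IGFBP4, chr17:40443390-40443449, plus strand: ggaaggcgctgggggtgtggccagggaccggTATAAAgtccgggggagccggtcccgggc
IGFBP6, chr12:53097607-53097666, plus strand: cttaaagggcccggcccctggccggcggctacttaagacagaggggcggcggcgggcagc
The motif began 30 bases before the start in IGFBP3 and 29 bases before it in IGFBP4, where in IGFBP3 overlapping matches on both strands make up the capitals. IGFBP6 had no match in this window, nor had the windows of IGFBP2 and IGFBP5. Of 35116 such windows over all genes, 5.85% held the motif. The motif was chosen after the values were known, and a match is a description of letters only.

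The cells expressed IGFBP6 and IGFBP7 strongly, IGFBP1, IGFBP3 and IGFBP4 at low levels, and IGFBP2 and IGFBP5 at or near 0. In shPTPRN3, IGFBP4, IGFBP3 and IGFBP7 had higher means than in shNC and IGFBP6 a lower one, and none of these differences passed limma's adjusted threshold in the unpaired fit. For IGFBP3, IGFBP6 and IGFBP7 the groups overlapped.

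IGFBP6 was the most abundant member. It had 273 and 138 scaled FPKM in shPTPRN3 and 425 and 189 scaled FPKM in shNC. Only 1.86% of the 11390 tested genes had a higher mean. The groups overlapped, since shNC replicate 2 lay below shPTPRN3 replicate 1. Its log2 fold change of -0.54 had an SE of 0.58 (limma, adjusted p = 0.741), and without shNC replicate 1 its sign turned, at 0.041. It was -0.05 without shPTPRN3 replicate 2, -1.03 without shPTPRN3 replicate 1 and -1.13 without shNC replicate 2. An exact permutation test of the 4 values gave p = 0.667, two-sided, where 0.333 is the smallest p that 2 against 2 values allow. The same permutation test gave p = 0.667 for IGFBP3 and IGFBP7, and p = 0.333 for IGFBP4 and PTPRN.

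IGFBP7, the low-affinity member, came next. It had 104 and 37.7 scaled FPKM in shPTPRN3 and 52.3 and 29.1 scaled FPKM in shNC. Its high value was that of shPTPRN3 replicate 1, and the groups overlapped. Its log2 fold change of 0.67 had an SE of 0.55 (limma, adjusted p = 0.654). Without shPTPRN3 replicate 1 its sign turned, at -0.050. Leaving out another library gave 0.26 (shNC replicate 2), 1.08 (shNC replicate 1) or 1.39 (shPTPRN3 replicate 2).

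IGFBP3, the main carrier of IGFs in serum, had the largest SE of the tested members. It had 12.8 and 5.43 scaled FPKM in shPTPRN3 and 8.03 and 0.956 scaled FPKM in shNC. The lowest library was shNC replicate 2, far under the other three, and the groups overlapped. Its log2 fold change of 1.16 had an SE of 0.72 (limma, adjusted p = 0.520). It was 0.058 without shNC replicate 2, 0.61 without shPTPRN3 replicate 1, 1.71 without shPTPRN3 replicate 2 and 2.27 without shNC replicate 1. The deposited confidence intervals, which cover error within a library, were 12.6 to 14.3 and 4.38 to 5.86 FPKM in shPTPRN3 and 7.54 to 9.13 and 0.629 to 1.23 FPKM in shNC. None of the 4 intervals touched another, so the gap between the replicates of each group was larger than this error.

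IGFBP4, an inhibitory member that the protease PAPPA cleaves, was the tested member whose groups did not overlap. It had 4.18 and 3.08 scaled FPKM in shPTPRN3 and 1.58 and 0.499 scaled FPKM in shNC, a 3.49-fold ratio of the means. It averaged 3.63 ± 0.778 scaled FPKM in shPTPRN3 and 1.04 ± 0.768 in shNC (SD, n = 2 each). Its log2 fold change of 1.22 had an SE of 0.37, with both shPTPRN3 libraries above both shNC libraries (limma, unadjusted p = 0.0127, adjusted p = 0.213). Taking the interval width as a counting error gives about 320 and 69.4 fragments for it in shPTPRN3 and 65.1 and 19.5 in shNC. The log2 fold change was 0.83 without shNC replicate 2 and between 1.05 and 1.62 without any other single library. With a pseudocount of 0.5 in place of 1 it was 1.51 (SE 0.46, limma, adjusted p = 0.232). It was 1.88 with a pseudocount of 0.1 (SE 0.61, limma, adjusted p = 0.264). A pseudocount of 1 understates the change of a gene at this level, but the SE grew along with the estimate. On FPKM rescaled to TPM the log2 fold change was 1.70 (SE 0.52, limma, adjusted p = 0.288). Each of these adjusted p lay above 0.213.

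**Figure D1:**
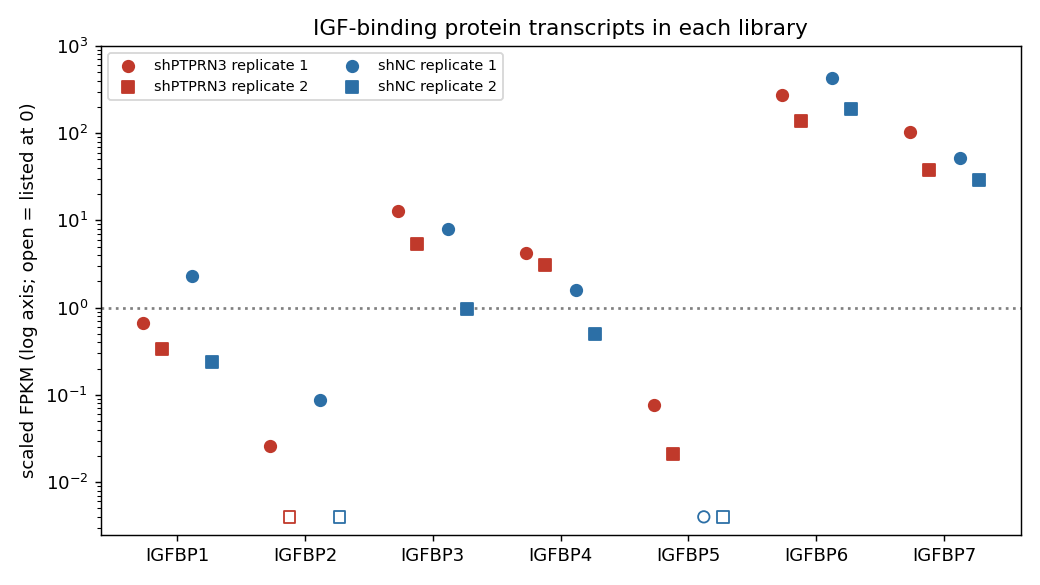
Scaled FPKM on a log axis for the 7 genes in each library, red for shPTPRN3 and blue for shNC, circles for replicate 1 and squares for replicate 2, with open symbols for values listed at 0 and a dotted line at 1. IGFBP6 and IGFBP7 stand highest, and IGFBP4 is the member above 1 FPKM whose red symbols both lie above both blue ones.

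IGFBP1, IGFBP2 and IGFBP5 had a mean under 1 scaled FPKM and were not tested. IGFBP1, an insulin-regulated member made mainly by liver, had 0.710 and 0.318 FPKM as deposited in shPTPRN3 and 2.40 and 0.232 FPKM in shNC. The high value was that of shNC replicate 1, about 53.2 fragments by its interval width, against 6.61 in shNC replicate 2. IGFBP2 had 0.0276 and 0 FPKM in shPTPRN3 and 0.0908 and 0 FPKM in shNC, with a lower interval bound of 0 in all 4 libraries. IGFBP5, a matrix-bound member, had 0.0804 and 0.0196 FPKM in shPTPRN3 and was listed at 0 in both shNC libraries. By these intervals IGFBP2 was not told apart from 0 in these cells at this depth. The interval of IGFBP5 in shPTPRN3 replicate 1 was 0.0481 to 0.111 FPKM, which lies above 0.

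In the unpaired fit no tested member passed the adjusted threshold, so none of the 4 was called (limma), and 1 of the 4, IGFBP4, had an unadjusted p under 0.05. Over all 11390 genes 0.421% were called and 13.4% had an unadjusted p under 0.05. The groups did not overlap for 1 of the 4 members, in the direction of higher in shPTPRN3, as for 21.5% of all tested genes in that direction and 23.1% in the other. As a description of the 4 that passed the filter on low values, the median log2 fold change was 0.92, from -0.54 for IGFBP6 to 1.22 for IGFBP4, against a median of -0.01 over all tested genes.

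Replicate 1 was higher than replicate 2 for all 4 tested members in both groups. For IGFBP6 this gap on the log2(scaled FPKM + 1) scale was 0.98 in shPTPRN3 and 1.17 in shNC, and for IGFBP7 it was 1.44 in shPTPRN3 and 0.82 in shNC. For IGFBP3 it was 1.10 in shPTPRN3 and 2.21 in shNC, and for IGFBP4 it was 0.34 in shPTPRN3 and 0.79 in shNC. Replicate 1 was the higher in both groups for 35.5% of all tested genes. The middle 50% of those genes had gaps from -0.32 to 0.39 in shPTPRN3 and from -0.41 to 0.44 in shNC.

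This gap moved with transcript length. Genes whose longest annotated transcript is under 1500 bases had a median gap of 0.45 in shPTPRN3 and 0.79 in shNC (1075 genes). Those from 1500 to under 3000 bases had 0.20 in shPTPRN3 and 0.32 in shNC (3282 genes). Genes from 3000 bases up had -0.12 in shPTPRN3 and -0.27 in shNC (6653 genes). Among the members the longest transcript is 1177 bases for IGFBP6, 1427 for IGFBP7, 2200 for IGFBP4 and 2412 for IGFBP3. In both groups the gap of each of these members, given above, was larger than the median of its length class. The part of length in the members' values was addressed by 1 fit with the length trend removed, chosen after seeing the data. In it the log2 fold changes were 1.34 for IGFBP4, 1.27 for IGFBP3, 0.83 for IGFBP7 and -0.37 for IGFBP6, and none was called (limma, smallest adjusted p = 0.0756, for IGFBP4).

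Set side by side by replicate number, the log2 differences between shPTPRN3 and shNC had the same sign for both numbers in each of the 4 tested members. The share of all tested genes with such agreement was not computed, so this agreement is a description only. For IGFBP4 they were 1.00 in the libraries numbered 1 and 1.45 in those numbered 2. The differences were 0.61 and 1.72 for IGFBP3 and 0.98 and 0.36 for IGFBP7, in the same order of numbers. For IGFBP6 they were -0.64 and -0.45. The labels do not say that a shared number marks a shared culture, day or batch.

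**Figure D2:**
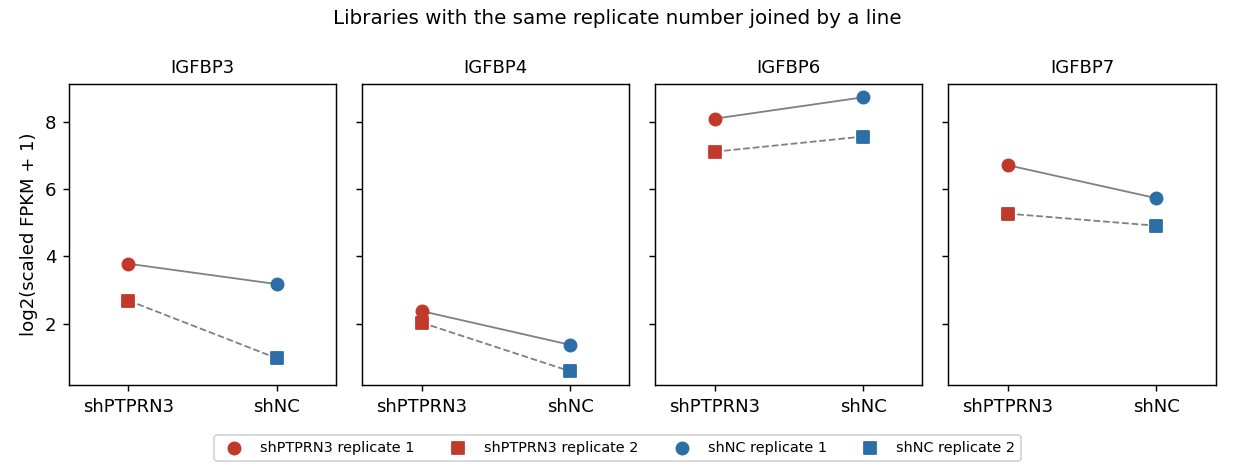
log2(scaled FPKM + 1) of the 4 tested members, shPTPRN3 on the left and shNC on the right of each panel, with libraries of the same replicate number joined by a line. Both lines slope down toward shNC in IGFBP3, IGFBP4 and IGFBP7 and up toward shNC in IGFBP6, and the circles of replicate 1 lie above the squares of replicate 2.

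The shares of the 4 tested members in the summed FPKM of the family did not overlap between the groups, while those of IGFBP1 and IGFBP2 did. Those of IGFBP5 did not overlap either, at 0.0193% and 0.0113% in shPTPRN3 and 0 in both shNC libraries, but rest on few fragments. Shares of 1 sum depend on each other, and no such share was computed for other genes. IGFBP6 made up 69.2% and 74.7% of the summed FPKM of the 7 genes in shPTPRN3 and 86.9% and 86.0% in shNC. IGFBP7 made up 26.3% and 20.5% in shPTPRN3 and 10.7% and 13.3% in shNC. FPKM are per length, but they depend on the length assumed and the length trend in the replicate gap remained in them. Levels of different genes are therefore set against each other only roughly.

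IGFBP3 took 3.23% and 2.95% of that sum in shPTPRN3 and 1.64% and 0.436% in shNC, and IGFBP4 1.06% and 1.67% in shPTPRN3 and 0.324% and 0.227% in shNC. The sum itself was 395 and 184 scaled FPKM in shPTPRN3 and 489 and 219 scaled FPKM in shNC, so its groups overlapped. Within a library the ratio of IGFBP7 to IGFBP6 was 0.381 and 0.274 in shPTPRN3 and 0.123 and 0.154 in shNC. Such a ratio shows that the 2 transcripts differed unequally and not which of them moved. These shares are a description with no test.

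**Figure D3:**
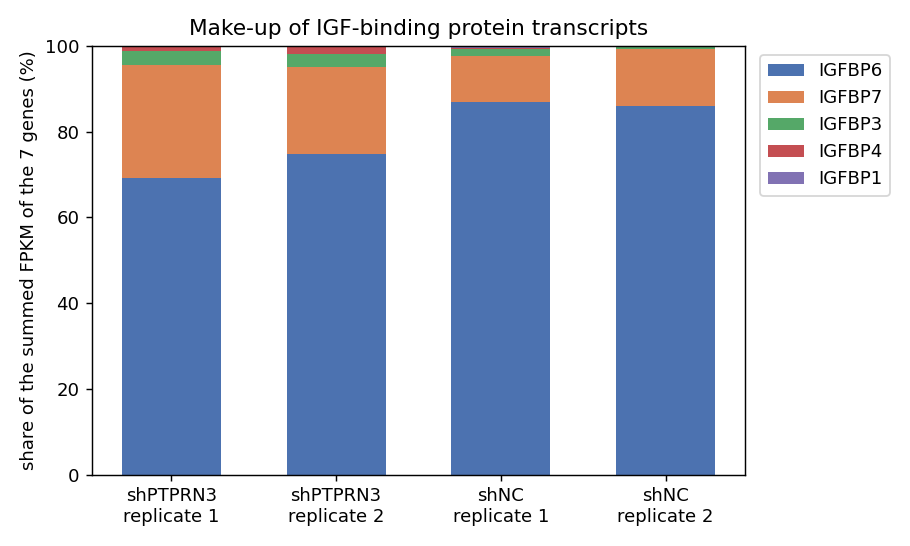
Share of the summed FPKM of the 7 genes, in percent, taken by each of the 5 members high enough to be drawn, as stacked bars for the 4 libraries. The IGFBP6 part ends at 69.2% and 74.7% in the shPTPRN3 bars and at 86.9% and 86.0% in the shNC bars.

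The deposited value of IGFBP6 lay above its own confidence interval in every library, by a factor of 1.28 and 1.25 over the midpoint in shPTPRN3 and 1.26 and 1.25 in shNC. IGFBP7 lay above its interval in shPTPRN3 replicate 1 alone (109.6 FPKM, interval 89.9 to 97.6). Between 4.43% and 10.6% of rows at 1 FPKM or more lay outside their interval, on either side, in each library. With the interval midpoint in place of the FPKM, chosen after seeing the data, the log2 fold change of IGFBP7 was 0.56 and that of IGFBP6 -0.55.

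By Euclidean distance between log2 values centred per gene over the 4 libraries, the genes nearest to IGFBP6 were RPL27 (0.050), MRPL4 (0.054) and RPL35A (0.071). RPL27 and RPL35A encode cytosolic ribosomal proteins and MRPL4 a mitochondrial one. Nearest to IGFBP7 were SOD3 (0.136), an extracellular superoxide dismutase, OSTC (0.153), a subunit of oligosaccharyltransferase, and PPIC (0.162), a cyclophilin of the secretory pathway. A distance over 4 libraries is a description of these libraries only.

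The ligands were near or at 0. IGF1 had 0.0996 and 0 scaled FPKM in shPTPRN3 and 0.0160 and 0 in shNC, and IGF2 had 0.0102 and 0.0438 in shPTPRN3 and 0.0599 and 0.0145 in shNC. INS was listed at 0 throughout, and IGFALS, which joins IGFBP3 or IGFBP5 and ligand into the ternary complex of serum, had at most 0.0994 scaled FPKM.

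IGF1R and IGF2R were expressed, and INSR was near 1 scaled FPKM. IGF1R, the signalling receptor, had 4.02 and 4.39 scaled FPKM in shPTPRN3 and 1.73 and 3.31 in shNC (limma, log2 fold change 0.60, adjusted p = 0.479), with no overlap. IGF2R, which clears IGF2, had 25.5 and 37.5 in shPTPRN3 and 12.5 and 28.9 in shNC (limma, log2 fold change 0.67, adjusted p = 0.569), with overlap. INSR, the insulin receptor, had 0.775 and 0.727 in shPTPRN3 and 0.935 and 1.62 in shNC (limma, log2 fold change -0.36, adjusted p = 0.657). Its groups did not overlap, with shPTPRN3 the lower, and only shNC replicate 2 lay above 1 scaled FPKM. In the list of 9 receptors and adaptors 0 of the 7 tested genes were called (limma), 0 had an unadjusted p under 0.05, and SHC1 had the largest value, 0.68.

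Among 18 proteases known to cut IGFBPs and their inhibitors, 13 were tested and 0 were called, while 3 genes were higher and 2 genes lower with an unadjusted p under 0.05 (limma). Over all tested genes 0.421% were called and 13.4% had an unadjusted p under 0.05, in either direction (limma). MMP3, a matrix metalloproteinase that cuts IGFBP3, had 162 and 469 scaled FPKM in shPTPRN3 and 52.6 and 31.3 in shNC (limma, log2 fold change 2.73, adjusted p = 0.104). PLAU, urokinase, had 26.9 and 13.7 in shPTPRN3 and 116 and 72.1 in shNC (limma, log2 fold change -2.19, adjusted p = 0.0955). The groups of both genes stood apart, in opposite directions.

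PAPPA, the protease of IGFBP4, had 10.1 and 9.31 scaled FPKM in shPTPRN3 and 2.52 and 11.9 in shNC, with overlap (limma, log2 fold change 0.67, adjusted p = 0.680). STC1, a stanniocalcin that inhibits PAPPA, had 12.7 and 12.5 in shPTPRN3 and 5.95 and 7.54 in shNC, without overlap (limma, log2 fold change 0.82, adjusted p = 0.320). STC2, the other stanniocalcin, had 20.0 and 23.3 in shPTPRN3 and 31.8 and 10.3 in shNC. PAPPA and STC1 were named after their values were seen, as was STC2.

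Of 6 cell-surface partners reported for IGFBPs, 4 were tested and 0 called, with 1 higher at an unadjusted p under 0.05 (limma). The share at that p over all tested genes was 13.4%, in either direction. ITGA5, the integrin subunit that pairs with ITGB1 and can bind IGFBP1, had 397 and 332 scaled FPKM in shPTPRN3 and 80.0 and 83.5 in shNC (limma, log2 fold change 2.14, adjusted p = 0.0785). LRP1, a large endocytic receptor reported to bind IGFBP3, had 97.4 and 109 in shPTPRN3 and 29.3 and 72.4 in shNC (limma, log2 fold change 1.14, adjusted p = 0.378).

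Over the whole axis (ligands, receptors, adaptors, proteases, partners) 24 of 37 genes were tested and 0 were called (limma), while 4 genes were higher and 2 genes lower with an unadjusted p under 0.05. That p was reached by 13.4% of all tested genes, in either direction. The groups did not overlap for 12 of the 24 in the higher direction and 3 in the lower, against the shares of 21.5% and 23.1% given above. The median log2 fold change was 0.55, against -0.01 over all tested genes. The lists were chosen with earlier results of these data known. These counts and this median are therefore a description and no evidence about the axis. An alternative fit without genes listed at 0 in any library, which called 217 genes over all against 48, called PLAU, MMP3 and ITGA5 of the axis (limma, adjusted p = 0.0373, 0.0378 and 0.0396) and no IGFBP. The other alternatives, which do not all share this outcome, are given in the closing section.

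**Figure D4:**
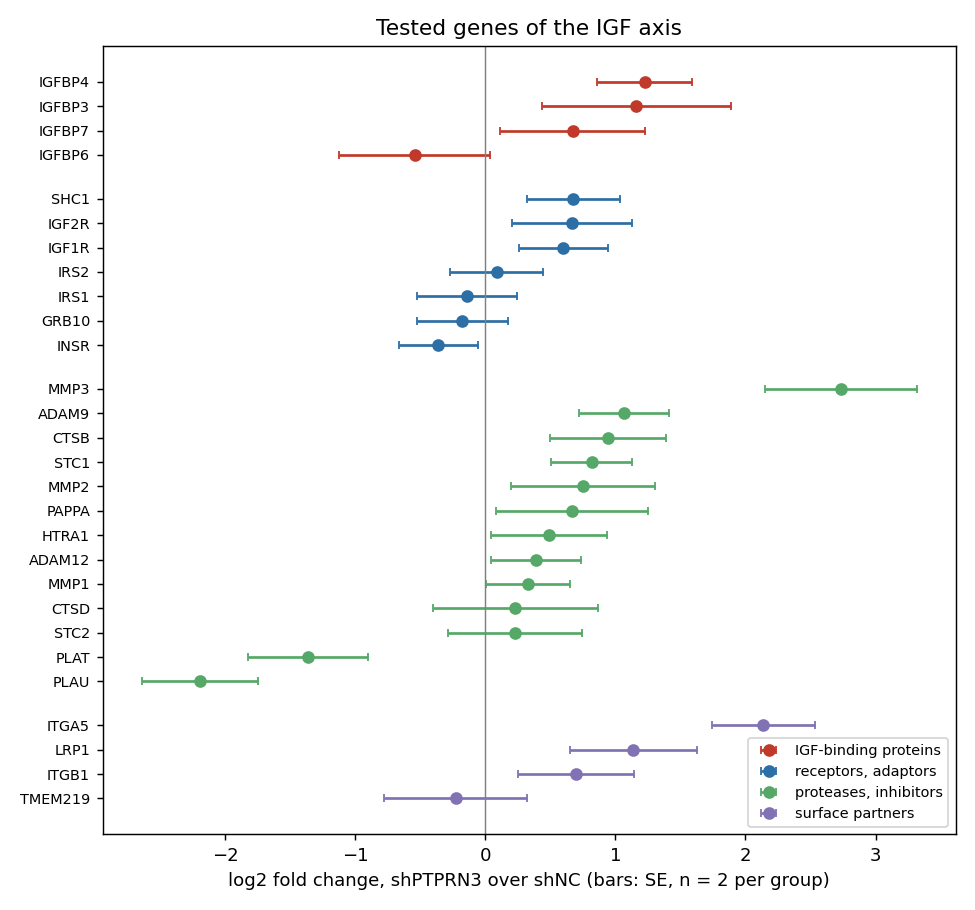
log2 fold change of shPTPRN3 over shNC with its SE (limma, n = 2 per group) for the 4 tested IGFBPs and 24 tested genes of the IGF axis, grouped by role. IGFBP4, IGFBP3 and IGFBP7 lie right of 0 and IGFBP6 left of it, while MMP3 at 2.73 and PLAU at -2.19 lie farthest out.

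Genes that carry an IGFBP-type domain without being IGFBPs showed no call among 6 tested of 12 (limma), with 1 lower at an unadjusted p under 0.05. That p was reached by 13.4% of all tested genes, in either direction. CCN3, a matricellular protein, had 26.2 and 24.5 scaled FPKM in shPTPRN3 and 44.0 and 47.9 in shNC (limma, log2 fold change -0.83, adjusted p = 0.328), and CCN5 had a log2 fold change of -0.94. Of the IGF2 mRNA-binding proteins, which share part of the name and bind RNA, IGF2BP3 had -0.87 and IGF2BP2 0.09, and neither was called or had an unadjusted p under 0.05 (limma). Among 12 genes of the FOXO and insulin response, 5 were tested and 0 called (limma), none with an unadjusted p under 0.05, with FBXO32 at 0.52 and TXNIP at -0.36.

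Proliferation genes had lower values in shPTPRN3 than in shNC. MKI67, a marker of dividing cells, had 1.90 and 0.566 scaled FPKM in shPTPRN3 and 15.6 and 34.3 in shNC (limma, log2 fold change -3.51, adjusted p = 0.0467), and all 6 genes of that list were lower without overlap, of which MKI67 and CDK1 were called, against 23.1% of all tested genes lower without overlap and 0.421% called. CDKN1A, which encodes the cell-cycle brake p21, had 609 and 918 in shPTPRN3 and 142 and 89.2 in shNC (limma, log2 fold change 2.72, adjusted p = 0.0759). In the list of 9 growth arrest and secretory genes 8 were tested and 0 called, while 2 genes were higher and 3 genes lower with an unadjusted p under 0.05 (limma). That p was reached by 13.4% of all tested genes, in either direction. The 2 higher genes were CDKN1A and MMP3, which is also in the protease list. The 3 lower genes were HMGB2, LMNB1 and CXCL8, named after their values were seen. These lists too were chosen with earlier results of these data known, and the part of their genes in the IGFBP values was not tested.

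Estimated from interval widths, depth was 26.7 and 11.4 M fragments in shPTPRN3 and 16.3 and 11.2 M in shNC, so replicate 1 was the deeper library in each group. In bulk RNA, fewer cells with a transcript and less of it per cell cannot be told apart. The U87 markers VIM, CD44, FN1, TNC, CHI3L1 and ANXA1 were between 22.2 and 2098 scaled FPKM in every library, and CDKN2A and MTAP, deleted in U87, were at most 0.0594. The astroglial markers GFAP and AQP4 were listed at 0, and S100B, SOX2 and OLIG2 were at most 0.872. Of 12 markers of immune, endothelial, epithelial and liver cells, 11 were under 1 scaled FPKM throughout and CD68, a lysosomal protein, was between 225 and 434.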

How the data were processed

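Cufflinks 2.2.1.2, STAR 2.6.0b-1 and FastQC 0.72 were run by the authors on hg38, per the submitters' processing notes. No source used here gives the annotation or the strand setting. Per the file headers, the deposited values are FPKM with a confidence interval and a status, 33646 gene rows per library. They hold no fragment counts, so depth and fragments were estimated by taking an interval as 4 square roots of the count; intervals cover error within a library only. FPKM depend on the transcript length assumed and on how fragments are shared at overlapping genes.

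Rows not OK in any library (651) were left out, and FPKM were summed per symbol and divided by median-ratio factors (1.05, 0.943, 1.04 and 0.974 for shPTPRN3 1 and 2 and shNC 1 and 2, over 9988 genes). Genes with a mean of at least 1 were tested, with the 11390 genes fitted together in R 4.3.3 by limma 3.58.1 (eBayes with trend, two-sided). The values entered as log2(scaled FPKM + 1), p-values were adjusted by Benjamini-Hochberg over all genes, and the threshold was 0.05. The pseudocount of 1 makes the fold changes of low genes too small. The script was tested on simulated data that held no deviation shared by replicate number and no length trend. The simulated data thus differ from these libraries. Positions count from 1; transcript lengths and strands came from GENCODE 29 on the same build. Python 3.11.15, pandas 2.3.3 and matplotlib 3.10.9 were used. A set of 16 alternatives covered scaling, pseudocount, filters, moderation, replicate number and leaving out each library, and 2 were added after seeing the data.

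The members and the 10 gene lists were chosen with earlier results of these data known. Named genes were the members, PTPRN, ligands and receptors, the called or else the 2 largest genes per list, the 3 genes nearest to each of the 2 highest members, MKI67 and CDKN1A; others are marked in the text. Other loci were not analysed here.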

Additional observations from a re-analysis of the deposited data

How the results depend on the processing

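Of 71 values of the 4 tested members under the alternatives, 67 kept their direction and their side of the threshold, 2 turned sign and 2 passed the threshold. IGFBP6 turned sign without shNC replicate 1 (0.041) and IGFBP7 without shPTPRN3 replicate 1 (-0.050). Leaving out a library gave 0.058 to 2.27 for IGFBP3, 0.83 to 1.62 for IGFBP4, -1.13 to 0.041 for IGFBP6, -0.050 to 1.39 for IGFBP7 and -2.44 to -1.99 for PTPRN. Members called numbered 0 in each of these fits, axis genes 0 to 1 (MMP3, without shPTPRN3 replicate 1), and all genes 39 to 179.

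The count of 48 genes called was 31 on FPKM as deposited, 23 with a pseudocount of 0.1, 8 when genes needed a mean of 5, 0 by limma with no filter (2163 genes at an unadjusted p under 0.05), 26 without the trend, 160 with robust eBayes, 217 without genes listed at 0, 69 with interval midpoints and 129 with the length trend removed. Axis genes called were 3 without genes listed at 0 and 1 (ITGA5) with the length trend removed. PTPRN, at -2.22 with adjusted p = 0.0592, passed without genes listed at 0 (-2.22, adjusted p = 0.0269), with robust eBayes (-2.22, adjusted p = 0.0362), with midpoints (-2.21, adjusted p = 0.0484) and with the length trend removed (-2.24, adjusted p = 0.0475), all by limma. The cause of these changes was not tested.

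Libraries of the same number deviated together over genes (r = 0.519 for both pairs, which 2 groups of 2 make equal), but 2 pairs and the labels do not establish a pairing. With the replicate number as a block, limma called 2163 genes, 8 axis genes, PTPRN (-2.22, adjusted p = 9.2e-07) and 2 members, IGFBP3 (1.16, adjusted p = 0.00455) and IGFBP4 (1.22, adjusted p = 0.00410). IGFBP7 had adjusted p = 0.0881 and IGFBP6 0.197 in that fit. The block is an added term estimated from the same libraries, so these p-values rest more on the spread pooled over genes. With 2 libraries per group, the depth limits IGFBP2 and IGFBP5, which rest on few fragments.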
